A study of Mus musculus with 24 samples.

Results

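Hemoglobin and erythroid genes were followed across mouse macrophage preparations through 6 genes, Hba-a1, Hba-a2, Hbb-bt, Hbb-b2, Alas2 and Slc4a1, out of the 46569 named genes and unnamed probes of the array. The genes were chosen by name, as probes of the scanner files that carry one of these symbols, and each of the 6 had 1 probe. A further probe named Hbb-b1, an older symbol of the beta-globin locus, is described beside them.

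The series profiled macrophages of male C57BL/6 mice, 10 weeks of age in the labels, on 24 one-colour Agilent arrays with 4 arrays in each of 6 groups. Tumour-associated macrophages (TAM) were isolated on a 70/30 Percoll gradient with 1 hour of adhesion. They came from mice 14 days after sepsis was induced (TAM post-sepsis) or from mice without sepsis (TAM naive). Bone marrow progenitors of post-sepsis or naive mice were cultured for 7 days in medium with 20% L929 supernatant and 10% serum (M0 post-sepsis and M0 naive). Cultures of naive marrow were also polarised on day 3 with interferon gamma at 50 ng/mL and LPS at 10 ng/mL (M1) or with IL-10 at 20 ng/mL (M2). No group carried a genetic change in the labels, the tumour line was not named there, and the arrays of each group were the best of a larger set by absorbance ratios. TAM naive replicate 2 was left out of all comparisons because the submitters' label marks it as excluded over its RNA, which was scarce and of poor quality, so 23 arrays were compared, 7 of them from tumours. The labels do not say whether replicates were single animals, so p-values measure the spread between these samples only, and for arrays their number sets the precision.

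Hemoglobin is a tetramer of alpha-like and beta-like globin chains, each holding a heme group that binds oxygen. Erythroid precursors make the chains and the heme in parallel, and reticulocytes, the youngest circulating red cells, still carry globin mRNA after losing their nucleus. Macrophages are known for engulfing aged red cells and recycling their heme iron, but they are not known as a site of adult globin synthesis. Alas2 encodes the erythroid aminolevulinate synthase, which catalyses the first step of heme synthesis, and Slc4a1 encodes band 3, the anion exchanger of the red cell membrane. Hba-a1 and Hba-a2 are the adult alpha-globin genes. Hbb-bt is an adult beta-globin gene of the haplotype that C57BL/6 mice carry, and Hbb-b1 and Hbb-b2 are the names of the adult beta-globin genes of the other common haplotype.

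The probe sequences are shown because they set which transcripts each value can hold. The Hba-a1 probe lies at chr11:32183955-32184014 and the Hba-a2 probe ends at chr11:32197275-32197304, both on the plus strand of mm9, the build in the file headers. The Alas2 probe lies at chrX:147004993-147005052 on the plus strand, and the Hbb-b2 probe is given no position on mm9 by the array. Capitals mark the polyadenylation signal AATAAA in the last 30 bases of the Hba-a2 probe and the stop codon in the Alas2 probe.
Hba-a1: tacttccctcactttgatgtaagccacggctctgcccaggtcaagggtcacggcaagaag
Hba-a2: gtctttgAATAAAgcctgagtaggaagaag
Hbb-b2: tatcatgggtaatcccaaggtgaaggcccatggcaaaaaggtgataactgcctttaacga
Alas2: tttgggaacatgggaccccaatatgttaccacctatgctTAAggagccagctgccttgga
The array lists the transcripts of both alpha-globin genes for the Hba-a1 probe and for the Hba-a2 probe, so the gene of origin of an alpha-globin signal cannot be told apart. The Hba-a2 probe reads the 3′ end of the alpha-globin message, whereas the Hba-a1 probe holds coding sequence. The Hbb-b2 probe lists Hbb-b2 and Hbb-b1 transcripts, and the Hbb-bt probe, at chr7:110961105-110961164 on the minus strand, lists the Hbb-bt transcript alone. The first 39 bases of the Alas2 probe are coding and 18 bases follow the stop codon. The Slc4a1 probe lies at chr11:102210256-102210315 on the minus strand.

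The 250 bases before the annotated start are shown for Hba-a1, Hbb-bt and Alas2, 3 members whose levels moved together across the tumour arrays, from RefSeq on GRCm38.p6. The windows are chr11:32283422-32283671 on the plus strand, chr7:103813924-103814173 on the minus strand and chrX:150547167-150547416 on the plus strand. Capitals mark the motif TATAA, the motif CCAAT, the motif CACCC and the motif GATAA, each searched on both strands, and matches may overlap.
Hba-a1 promoter: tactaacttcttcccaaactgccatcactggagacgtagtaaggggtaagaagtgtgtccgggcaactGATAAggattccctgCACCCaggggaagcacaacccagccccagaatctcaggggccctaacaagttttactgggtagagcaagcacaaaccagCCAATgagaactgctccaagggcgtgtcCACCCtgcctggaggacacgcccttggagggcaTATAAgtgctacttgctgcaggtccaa
Hbb-bt promoter: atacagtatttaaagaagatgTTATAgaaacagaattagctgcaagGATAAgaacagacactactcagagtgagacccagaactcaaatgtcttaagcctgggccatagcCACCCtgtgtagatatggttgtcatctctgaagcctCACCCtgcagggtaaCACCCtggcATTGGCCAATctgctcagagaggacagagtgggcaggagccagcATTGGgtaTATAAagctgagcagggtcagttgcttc
Alas2 promoter: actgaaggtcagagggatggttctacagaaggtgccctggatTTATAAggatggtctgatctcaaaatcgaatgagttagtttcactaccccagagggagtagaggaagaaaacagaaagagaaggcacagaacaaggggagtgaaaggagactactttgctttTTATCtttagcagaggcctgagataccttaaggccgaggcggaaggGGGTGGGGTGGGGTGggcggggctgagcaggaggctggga
All 3 windows held GATAA, the core of the site of the erythroid factor GATA1, and CACCC, the core of the site of the erythroid Krüppel-like factor. Of the 32851 promoter windows of the table, 22.6% held GATAA, 52% CACCC, 33.8% CCAAT and 22.8% TATAA. The motif CCAAT was found in the Hba-a1 and Hbb-bt windows and not in that of Alas2. In the Hba-a1 and Hbb-bt windows a TATAA began at -27 and -28 from the start, while in the Alas2 window the overlapping matches began at -208 and -207. The windows of Hba-a1 and Hba-a2 shared an identical run of 297 of 300 bases, so the alpha-globin genes have nearly the same proximal promoter. These matches describe the letters only. Hbb-b2 and Slc4a1 were not among the windows used here.

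Levels are given as log2 of the deposited signal minus the log2 of the array's 75th percentile, so that 0 is the level of that percentile. Across the 23 arrays the percentile was 236 to 694 intensity units and 56.9 to 69.8% of probes were well above background, against 49.2 units and 42.5% on the array left out. Arrays of one group correlated at 0.901 to 0.996 over the probes well above background on all 23 arrays. No spot was saturated.

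The alpha-globin genes were among the brightest messages of the tumour isolates. Hba-a1 stood at 8.17, 8.38 and 9.07 in TAM naive and at 9.02, 8.74, 3.94 and 7.73 in TAM post-sepsis replicates 1 to 4. Hba-a2 stood at 9.84, 9.85 and 10.57 in TAM naive and at 9.74, 10.08, 6.03 and 9.22 in TAM post-sepsis. The groups overlapped, with TAM naive replicate 1 the highest tumour array and TAM post-sepsis replicate 3 the lowest for both probes. The Hba-a2 probe gave the highest signal of any probe on TAM post-sepsis replicate 1, at 515743 intensity units, below the saturation value of at least 778455. On the 16 marrow arrays Hba-a1 ranged from -3.86 to -1.84 and Hba-a2 from -1.55 to 0.04. Both were well above background on all 16, so a low alpha-globin signal was measured in every marrow culture, and no marrow array reached any tumour array.

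The beta-globin probes were high in tumour isolates and mostly below background in marrow. Hbb-bt, an adult beta chain of the C57BL/6 locus, stood at 8.24, 8.40 and 8.80 in TAM naive and at 8.52, 8.59, 3.56 and 7.19 in TAM post-sepsis. Hbb-b2 stood at 6.42, 6.61 and 7.17 in TAM naive and at 7.40, 6.75, 1.79 and 5.75 in TAM post-sepsis. Replicate 3 was again far below the other tumour arrays, and replicate 4 was the next lowest for both. In marrow cultures Hbb-bt was well above background on 1 of 16 arrays, M0 post-sepsis replicate 3 at -3.21, and Hbb-b2 on 0 of 16. The neighbouring Hbb-b1 probe, whose listed transcripts are Hbb-b1 and Hbb-bs, ranged from 3.81 to 5.62 on the tumour arrays other than post-sepsis replicate 3 and was 0.22 on that array. In marrow it was well above background on 1 of 16 arrays, M0 naive replicate 4.

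The heme and membrane genes followed the globins at lower signal. Alas2 stood at 2.28, 2.51 and 3.43 in TAM naive and at 3.58, 2.99, -2.31 and 1.89 in TAM post-sepsis, and it was well above background on 0 of 16 marrow arrays. Slc4a1 stood at -2.13, -2.0 and -1.45 in TAM naive and at -2.03, -2.15, -4.01 and -2.75 in TAM post-sepsis. For Alas2, as for the globins, post-sepsis replicate 3 was the lowest tumour array and replicate 4 the next lowest. Slc4a1 was well above background on all 23 arrays, and its 16 marrow values, from -3.74 to -2.02, overlapped the tumour values.

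**Figure D1:**
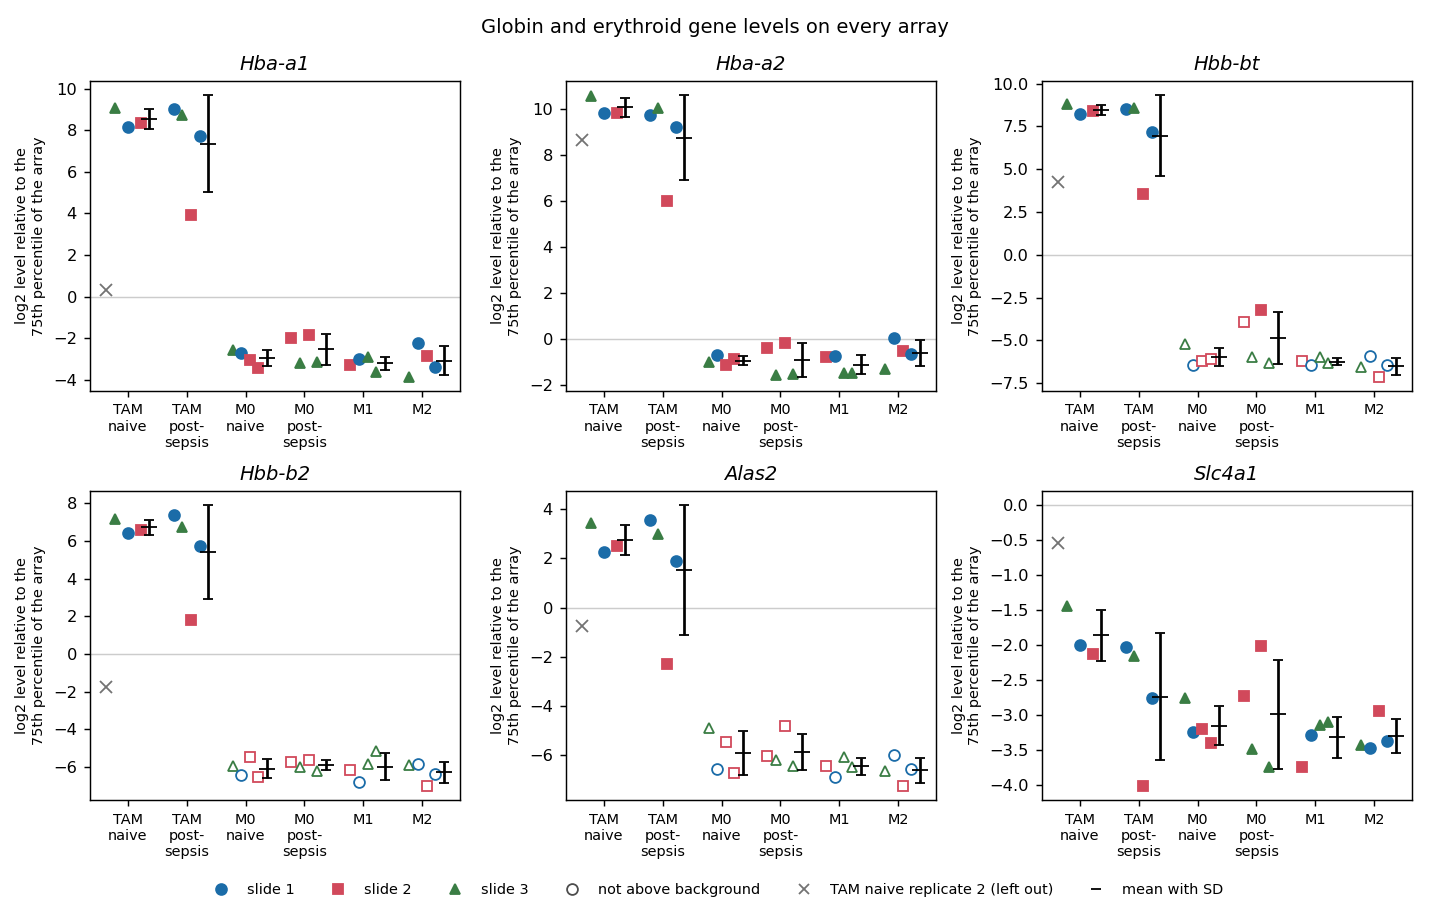
Level of each gene on every array (y axis, log2 relative to the 75th percentile of the array) in the 6 groups (x axis), with the slide as colour and symbol, open symbols for spots not above background, and the mean with its SD beside each group. The globins and Alas2 are high on 6 tumour arrays, lower on TAM post-sepsis replicate 3 on slide 2 (Hba-a1 3.94) and low in all marrow cultures (Hba-a1 at most -1.84), while Slc4a1 overlaps between tumour and marrow arrays.

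The comparison of naive tumour isolates with naive marrow cultures asks how far the globin signal belongs to the tumour preparations. All 6 genes rose in TAM naive (limma, adjusted p under 0.05), where 15.1% of the 30620 genes tested rose, and their groups did not overlap, as for 17.1% of genes in that direction. Hba-a1 was 2870-fold higher, a log2 difference of 11.48 ± 0.79 (SE, adjusted p = 2.72e-10), and Hba-a2 2090-fold higher (11.03 ± 0.65, adjusted p = 2.67e-11). Since the marrow arrays give only a bound for the next 3 genes, each is given as the mean of TAM naive over the higher of the dimmest signal well above background and the gene's own signal on each M0 array. Hbb-bt was at least 8130-fold higher (adjusted p = 3.99e-11), Hbb-b2 at least 2430-fold (adjusted p = 1.01e-10) and Alas2 at least 152-fold (adjusted p = 1.11e-07). With 0 of 4 M0 naive arrays above background, these 3 genes passed the filter only through TAM naive. Their p-values and their place in the count of 6 thus set a signal against background. Slc4a1 was 2.44-fold higher (1.29 ± 0.41, adjusted p = 0.017), but without TAM naive replicate 1 its difference was 1.08 with an adjusted p of 0.0917. Tumour isolates and cultures differ in cell source, isolation and culture at once, and in bulk RNA fewer cells of a type and less RNA per cell cannot be told apart.

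In the same comparison after sepsis, 5 of 6 genes rose in TAM post-sepsis over M0 post-sepsis, where 16.4% of the 29895 genes tested rose and 13.8% were higher without overlap. Hba-a1 was higher by 9.91 ± 0.73 log2 units (adjusted p = 5.79e-10) and Hba-a2 by 9.68 ± 0.60 (adjusted p = 4.44e-11). Hbb-bt, above background on 1 of 4 M0 post-sepsis arrays, was higher by 11.83 ± 0.81 (adjusted p = 1.85e-10). Hbb-b2 was at least 770-fold higher (adjusted p = 1.50e-10) and Alas2 at least 52.1-fold (adjusted p = 3.03e-07). Hbb-bt, Hbb-b2 and Alas2 passed the filter only through TAM post-sepsis. Slc4a1, at 0.25 ± 0.38 (adjusted p = 0.607), was the one gene that did not pass. Without post-sepsis replicate 3 the difference was 11.05 log2 units for Hba-a1 and 10.59 for Hba-a2.

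Between TAM post-sepsis and TAM naive, the comparison in the title of the series, 0 of 6 genes passed the test. In the same fit 0% of the 28932 genes tested passed, although 37.9% had an unadjusted p under 0.05. The differences, post-sepsis minus naive, were -1.18 ± 1.15 for Hba-a1, -1.32 ± 0.93 for Hba-a2, -1.52 ± 1.15 for Hbb-bt and -1.31 ± 1.23 for Hbb-b2. They were -1.20 ± 1.31 for Alas2 and -0.88 ± 0.49 for Slc4a1, and adjusted p ran from 0.209 to 0.498. All 6 estimates were negative and the groups overlapped for all 6 genes, where 12.6% of genes were lower in post-sepsis without overlap. Their median was -1.25, against -0.05 over all genes tested. Replicate 3 decides these values. Without it the differences were -0.04, -0.41, -0.38, -0.10, 0.08 and -0.45 in the same order of genes.

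**Figure D2:**
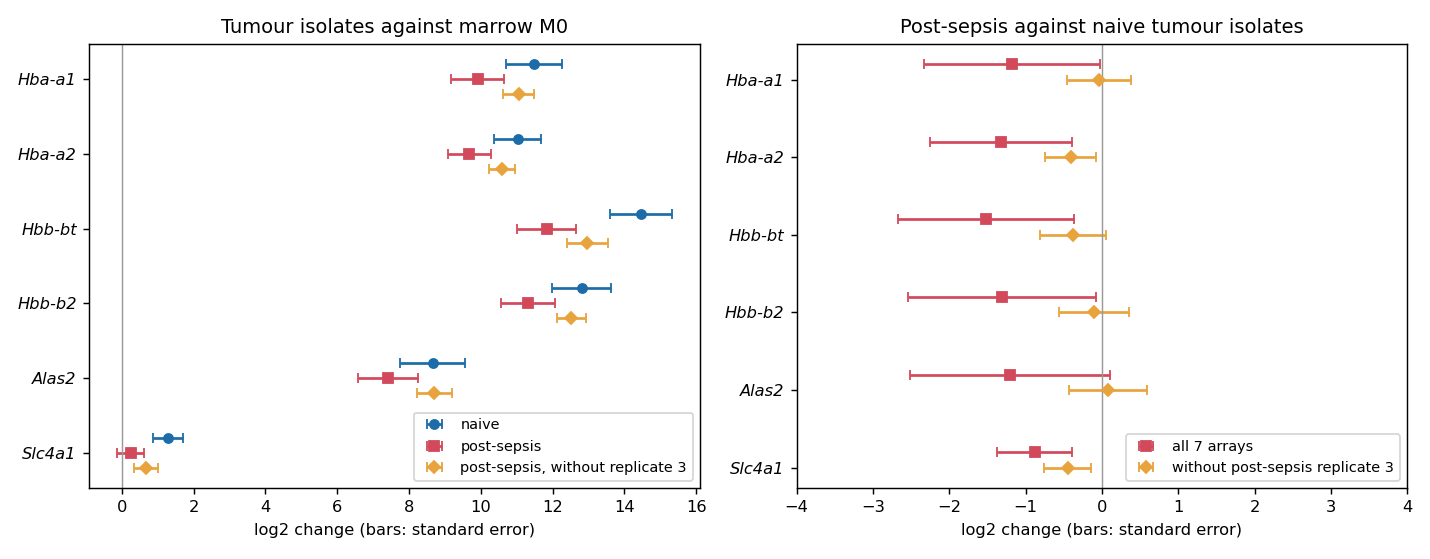
Log2 change of each gene with its standard error (x axis), for tumour isolates against marrow M0 cultures (left) and for post-sepsis against naive tumour isolates (right). The globins and Alas2 lie 7.42 to 14.46 log2 units above the cultures, as fitted also where the culture signal is below background, and the differences between tumour groups move from -1.18 to -0.04 for Hba-a1 when post-sepsis replicate 3 is left out.

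The arrays were spread over 3 slides, and every slide held tumour arrays of both groups. On slide 1, with 2 post-sepsis arrays and 1 naive array, Hba-a1 differed by 0.21, Hba-a2 by -0.37, Hbb-bt by -0.39, Hbb-b2 by 0.16 and Alas2 by 0.45. On slide 3, with 1 array of each group, these genes differed by -0.33, -0.49, -0.21, -0.42 and -0.44. On slide 2, which held post-sepsis replicate 3 and naive replicate 4, the same genes differed by -4.44, -3.82, -4.84, -4.82 and -4.82. The naive array of slide 2, the only other tumour array there, was within the range of the other tumour arrays for all of them. The cause of the low values was not tested. Slc4a1 was lower in post-sepsis on all 3 slides, by 0.39, 1.88 and 0.70 log2 units on slides 1 to 3. With the slide as a block 34.9% of all genes passed in the tumour comparison and 0 of 6 of these did, with Slc4a1 at -0.93 ± 0.34 (adjusted p = 0.0742).

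**Figure D3:**
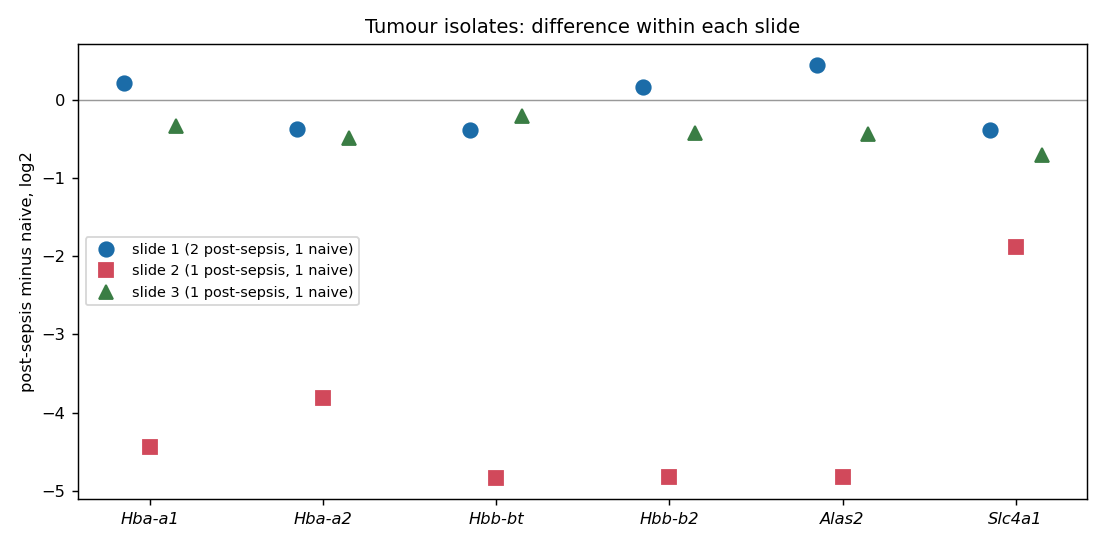
Post-sepsis minus naive difference of each gene within each of the 3 slides (y axis, log2), with symbols for slides. Slides 1 and 3 lie between -0.70 and 0.45 for all 6 genes, and slide 2, which holds post-sepsis replicate 3, lies between -4.84 and -1.88.

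TAM post-sepsis replicate 3 was the lowest of the 7 tumour arrays for all 6 genes, and 23.4% of the genes tested were lowest there. Against the mean of the 6 other tumour arrays, Alas2 was 34.0-fold lower, Hbb-b2 29.8-fold, Hbb-bt 26.5-fold, Hba-a1 23.8-fold, Hba-a2 14.5-fold and Slc4a1 3.8-fold. Differences of more than 3 log2 units below that mean were found for 5 of these 6 genes and for 1.35% of all genes. The 75th percentile of this array, 693.6 intensity units, was the highest of the 23 arrays, and its share of probes above background was 58.6%, within the range of the others. The globins on this array nevertheless stayed above every marrow culture, with Hba-a1 at 3.94 and Hbb-bt at 3.56.

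Marker sums, the log2 of the summed level of a list, differed on this array as well, and their part in the result was not tested. The 4 globin probes together summed to 6.58 on replicate 3 and to 9.98 to 11.37 on the other tumour arrays. The B cell list (8 genes) was -0.03 there and 1.31 to 5.42 on the others, the neutrophil list (12 genes) 3.38 and 4.08 to 8.42, and the fibroblast list (6 genes) 10.05 and 7.68 to 9.75. The platelet list (13 genes), of the other anucleate blood cell, was 4.61 on replicate 3 and 4.25 to 5.13 on the others. It was higher in marrow cultures, at 6.42 to 7.26 in M0 naive and 7.76 to 8.09 in M2, so this sum does not measure platelets alone. The melanocyte list was 10.71 to 11.12 on the others and just below that range on replicate 3. The endothelial list was 4.56 there and 4.24 to 5.30 on the others, the T and NK cell list (11 genes) 3.40 and 3.20 to 5.05, and the macrophage identity list 6.27 and 6.15 to 8.56. A sum follows its brightest genes, so the genes were also counted. On replicate 3 all 8 B cell genes were the lowest of the 7 tumour arrays, as were 8 of 12 neutrophil genes and 7 of 11 T and NK cell genes, and 3 genes of each of these lists were more than 3 log2 units below the mean of the others. Among the latter were Cd2 (-4.35, against -1.53 to 3.07 on the others) and Cd3g (-6.83, against -3.85 to -0.58), both of T cells and named after their values were seen. Of 13 platelet genes 3 were lowest there and 2 highest. Ppbp, a platelet gene also named after its values were seen, was among the lowest (-1.46, against -0.63 to 0.04 on the others). Of 15 macrophage identity genes 1 was lowest there and of 7 endothelial genes 0, and 5 of 6 fibroblast genes were highest there.

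The 6 genes moved together across tumour arrays. Over the 7 arrays their pairwise Pearson correlations were 0.947 to 0.998, and over the 6 arrays without post-sepsis replicate 3 they were 0.674 to 0.987. Over the 16 marrow arrays, where several are below background, they were -0.212 to 0.755. These are descriptions over arrays that share a scaling step.

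Of 65 further genes of the erythroid programme, 63 were on the array and 41 were well above background on all 7 tumour arrays. In TAM naive against M0 naive 48 were tested, of which 14 rose and 9 fell, where 15.1% of all genes rose and 20.5% fell, with a median change of 0.09 against 0.02 over all genes. The members of this list that rose did not include the genes of heme synthesis that act after Alas2: of the 10 genes of heme synthesis and mitochondrial iron import, 0 rose and 2 fell, Urod (-0.67, uroporphyrinogen decarboxylase) and Uros (-0.56, uroporphyrinogen synthase). Among membrane genes, Aqp1, a water channel also made by endothelium, was at least 167-fold higher and Slc43a1, an amino acid transporter, at least 7.95-fold. Rhd, of the Rhesus complex, rose by 3.70 ± 0.29, whereas Epb41, a protein of the membrane skeleton, and Gypc, glycophorin C, fell (-0.74 and -0.61). Of the minor globins Hbq1a, a theta-globin gene of the alpha locus, rose by at least 1.78-fold.

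Transcription factors and receptors of erythroid precursors went both ways. Bcl11a, which represses embryonic globins, rose by 2.25 ± 0.69, Myb, a factor of progenitors, by 2.74 ± 0.64 and Zfpm1, the GATA1 partner FOG1, by 1.08 ± 0.21. Lmo2 (-4.05), Tal1 (-2.67) and Nfe2 (-1.21) fell, 3 factors that erythroid cells share with other blood lineages. Epor, the erythropoietin receptor, rose by 1.71 ± 0.27 and Kit, the stem cell factor receptor that melanocytes also carry, by 3.86 ± 0.34. Among red cell enzymes and late genes Car2, a carbonic anhydrase, rose by 3.78 ± 0.37 and Bpgm, which makes bisphosphoglycerate, by 1.38 ± 0.27.

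Some defining genes of red cell precursors were at or near background in the tumour isolates. Named after their values were seen, Rhag, Kel, Ank1 (ankyrin 1) and Sptb (beta-spectrin) were above background on 0 of 7 tumour arrays, as were Add2 and the embryonic globins Hba-x and Hbb-y. Gata1 was above background on 1 of 3 TAM naive arrays, Klf1 on 1 of 3 and the alpha-globin chaperone Ahsp on 2 of 3. Over the whole list of 17 membrane and cytoskeleton genes, 6 were above background on 0 of 7 tumour arrays and 9 on all 7.

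In TAM post-sepsis against TAM naive 0 of 46 genes of the list passed, as did 0 of all 28932 genes. With slide as a block 3 of the 46 rose and 5 fell, where 34.9% of all genes passed in either direction. All 5 that fell were among the 8 erythroid transcription factors tested, of which 1 rose. The median of these 8 in the fit without the block was -0.97. The median of the 46 in that fit was 0.16, against -0.05 over all genes. Hemgn (0.36 ± 0.40), Prdx2 (0.30 ± 0.20) and Bnip3l (-0.23 ± 0.27) were among the brightest. In TAM post-sepsis against M0 post-sepsis 49 were tested, of which 14 rose and 13 fell, or 10 without replicate 3, where 16.4% of all genes rose and 27.7% fell. Aqp1 was at least 129-fold higher and Slc43a1 at least 8.06-fold, and Rhd rose by 3.40 ± 0.27. Lmo2 (-5.31), Nfe2 (-3.83) and Tal1 (-3.16) fell.

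The genes of the programme were also compared on post-sepsis replicate 3. Of the 46 tested in the tumour comparison, 14 (30.4%) were lowest on that array, where 23.4% of all genes were. More than 3 log2 units below the mean of the others was 1 of the 46, where 1.35% of all genes were. That gene was Hbq1a, at -6.89 against -4.56 to -3.30 on the other tumour arrays. Nfe2 was 2.35 log2 units below the mean of the others and Tent5c, a late erythroid gene, 2.05 units below. Genes higher in the tumour isolates than in marrow M0 cultures went both ways. Aqp1, Slc43a1, Rhd and Car2 differed from that mean by 1.42, 0.07, 0.24 and 0.22. Myb, Bcl11a and Kit, which rose in TAM naive, differed by -1.95, -1.92 and -0.65 and were lowest on replicate 3. Genes of the list that were high in tumour isolates were thus not all low where the globins were low.

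**Figure D4:**
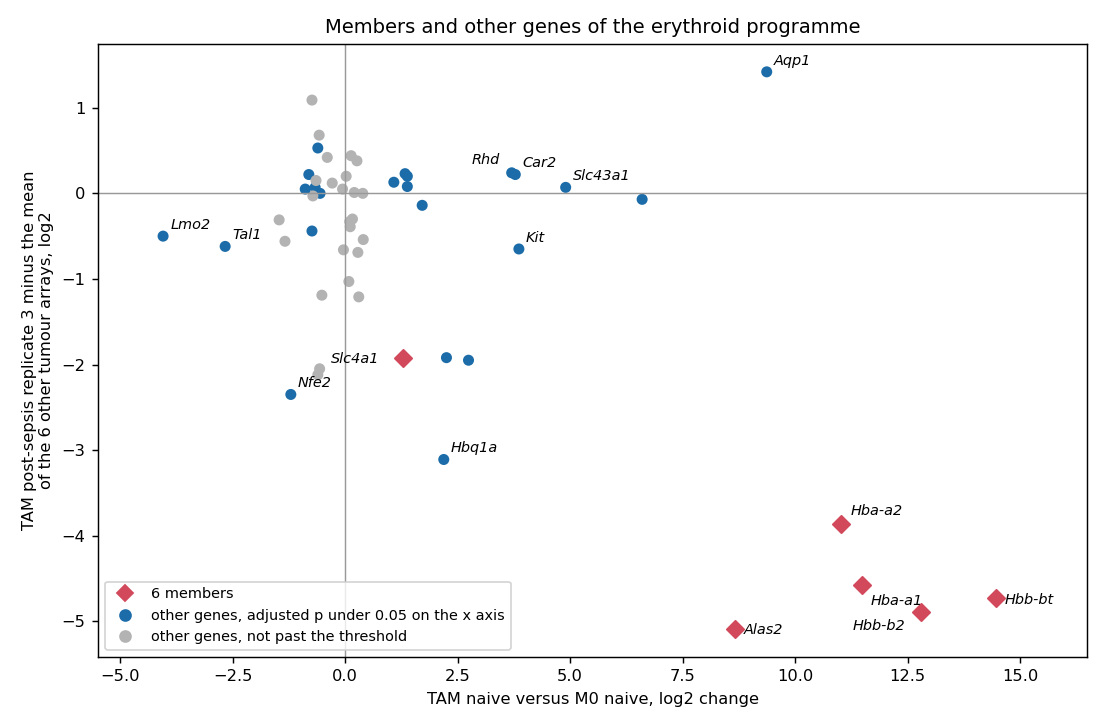
Change of each gene in TAM naive against M0 naive (x axis, log2) against its level on TAM post-sepsis replicate 3 minus the mean of the 6 other tumour arrays (y axis, log2), for the 6 genes (diamonds) and the other erythroid genes tested (circles, blue where the x axis change passed the test). The globins and Alas2 lie alone at the lower right, and Aqp1 and Slc43a1 lie at the right near or above 0 on the y axis.

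Marrow cultures did not separate by globin level. In M0 post-sepsis against M0 naive, in M1 against M0 naive and in M2 against M0 naive, 3 of the 6 genes, Hba-a1, Hba-a2 and Slc4a1, passed the filter and 0 of 3 passed the test in each, where 11.9, 27.7 and 11.9% of all genes passed. Hba-a1 differed by 0.39 ± 0.38 in M0 post-sepsis, by -0.28 ± 0.38 in M1 and by -0.14 ± 0.38 in M2. Hba-a2 differed by 0.03 ± 0.35, -0.19 ± 0.35 and 0.33 ± 0.35, and Slc4a1 by 0.16 ± 0.31, -0.17 ± 0.31 and -0.15 ± 0.31. In order of mean level, Hba-a1 ran from TAM naive (8.54) and TAM post-sepsis (7.36) to M0 post-sepsis (-2.55), M0 naive (-2.95), M2 (-3.09) and M1 (-3.22). The ranges of the 4 marrow groups overlapped, with SDs of 0.73, 0.38, 0.69 and 0.33 in that order.

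Other erythroid genes did change in these cultures. In M0 post-sepsis 6 of 44 rose and 1 fell, where 5.99% of all genes rose and 5.9% fell. Kit rose by 1.84 ± 0.32, Nfe2 by 1.04 ± 0.21, and Alad, an enzyme that acts after Alas2 in the heme pathway, by 0.93 ± 0.21, and Tent5c fell by 1.76. In M1 9 genes of the list rose and 10 fell, where 13.1% of all genes rose and 14.7% fell, among them Car2 (4.25 ± 0.35), Gypc (2.18 ± 0.20) and Lmo2 (-2.48 ± 0.18). In M2 6 rose and 3 fell, where 4.87% of all genes rose and 7.03% fell, with Car2 (5.75 ± 0.35) and Tfrc, the transferrin receptor that takes up iron (4.63 ± 0.29), the largest in either direction. These genes are also expressed outside the erythroid lineage.

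The sepsis difference in tumour isolates minus that in marrow cultures passed for 0 of 6 genes, where 5.93% of the 31773 genes tested passed. The estimates were -1.58 ± 1.08 for Hba-a1, -1.35 ± 0.89 for Hba-a2 and -1.03 ± 0.56 for Slc4a1. Without post-sepsis replicate 3 they were -0.44, -0.44 and -0.61. For Hbb-bt, Hbb-b2 and Alas2 no size is given, because 0 of 4 M0 naive arrays and at most 1 of 4 M0 post-sepsis arrays were above background.

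The labelled cell type was checked through 15 macrophage genes. On every one of the 7 tumour arrays 14 of them were well above background, and Spi1 was above background on 3 of 7. Their means in TAM naive ran from -3.74 for Spi1 to 7.72 for Itgam. Csf1r was at 2.55 and Cd68 at 2.71, and Adgre1 at -0.67 and Fcgr1 at -2.37. In TAM naive against M0 naive 14 of 15 fell, among them C1qc (-7.46), Adgre1 (-7.53), Cd68 (-5.73) and Fcgr1 (-6.41), and Itgam was the one that did not pass (1.63 ± 0.83, adjusted p = 0.136). The summed level of the macrophage genes was 6.15 to 8.56 on tumour arrays against 9.76 to 11.19 in marrow. Beside them, 7 of 7 melanocyte genes rose, and their summed level reached 11.12 on tumour arrays against 2.81 to 4.58 in marrow. All 6 fibroblast genes, 4 of 6 endothelial genes tested, 7 of 9 T and NK cell genes and 4 of 7 B cell genes rose as well, while 1 of 12 neutrophil genes rose and 6 fell. Of the 10 platelet genes tested 4 rose and 3 fell, with Ppbp higher by 4.25 ± 0.47 and Pf4 at -3.74 ± 0.33. The part of other cell types in the globin signal was not tested.

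Most macrophage genes of heme and iron handling were lower in the tumour isolates. Of 14 tested in TAM naive against M0 naive, 1 rose and 11 fell, where 15.1% of all genes rose and 20.5% fell. In TAM post-sepsis against M0 post-sepsis 0 rose and 11 fell, where 16.4% of all genes rose and 27.7% fell. In TAM naive Hmox1, the heme oxygenase that macrophages induce on taking up heme, rose by 2.39 ± 0.85, whereas Slc40a1, the iron exporter ferroportin (-6.63), Blvrb, a biliverdin reductase (-4.85), Ncoa4, the ferritin receptor of iron release (-3.73), and Spic, the factor of iron-recycling macrophages (-2.73), fell. In TAM post-sepsis against M0 post-sepsis Hmox1 did not pass (-1.39 ± 0.78, adjusted p = 0.153). On post-sepsis replicate 3 Hmox1 stood at 0.90, against 2.38 to 6.00 on the other tumour arrays.

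The genes whose level was most like the mean of the 4 globin probes were different over all arrays and within tumours. Over the 23 arrays, where the tumour and marrow contrast sets the correlation, the named genes nearest to it included Tyrp1 (r = 0.987), Pmel (0.987) and Dct (0.986), all of melanin synthesis, with Tspan12, Insc, Mapk8ip1, Atp6v0e2 and 1810065E05Rik. Over the 7 tumour arrays the nearest named genes were Hbq1a (r = 0.99), Zdhhc22 (0.98), Tmem94 (0.979) and Tent5c (0.973). Post-sepsis replicate 3, far below the others for the globins, weighs most in this correlation, so it favours genes that are low there. Zdhhc22 stood at -0.83 on post-sepsis replicate 3 and at 3.82 on average on the other tumour arrays, and Tyrp1 at 8.32 and 8.71. Tyrp1, Pmel and Dct were lowest on replicate 3 as well, by 0.39, 0.34 and 0.41 log2 units below the mean of the others. Of the 7 melanocyte genes only these 3 were lowest there. Mlana, Tyr, Sox10 and Mitf were above that mean on replicate 3, by 0.39, 0.98, 0.14 and 0.1.

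The distance between probes of the globin messages was compared across arrays. The Hba-a2 probe minus the Hba-a1 probe was 0.72 to 2.08 log2 units on the 7 tumour arrays and 1.44 to 2.73 on the 16 marrow arrays. The Hbb-bt probe minus the Hbb-b2 probe was 1.12 to 1.83 on the 7 tumour arrays and -1.23 to 2.42 on the marrow arrays, where these probes were mostly below background. On post-sepsis replicate 3 the alpha gap, 2.08, was the widest of the 7 tumour arrays, and the beta gap, 1.77, was within the range of the others.

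**Figure D5:**
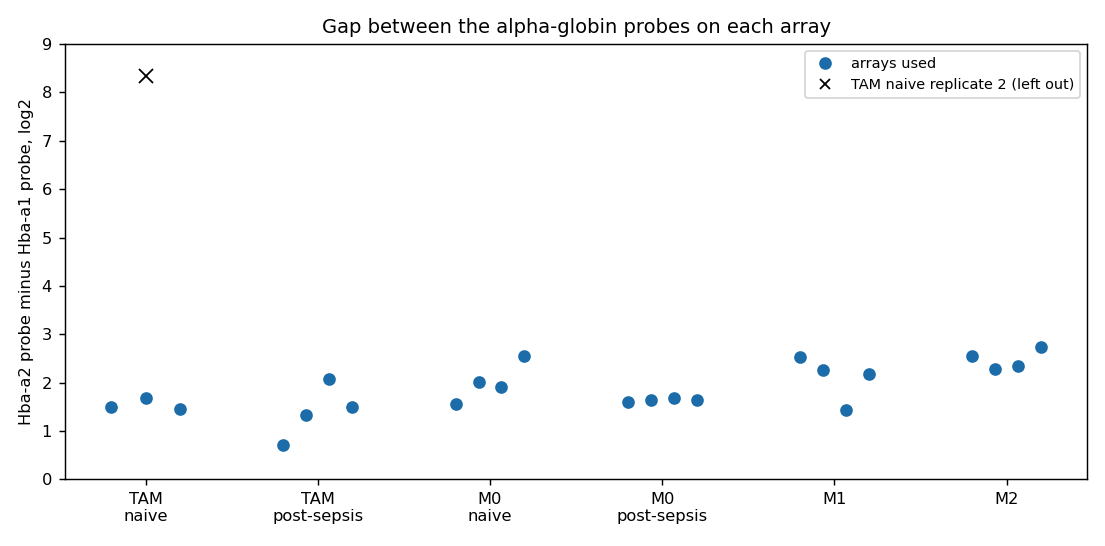
Difference between the Hba-a2 probe, at the 3′ end of the message, and the Hba-a1 probe, in coding sequence, on each array (y axis, log2) by group (x axis). The 23 arrays compared lie between 0.72 and 2.73, and TAM naive replicate 2, left out, lies at 8.34.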

How the data were processed

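The authors deposited 1 Agilent Feature Extraction file per array (mm9 annotation, software version 10.7.3.1 per the file headers and 12.5 per the submitters' processing notes), holding intensity per spot, processed (background-corrected) per the file headers. Control spots and spots flagged non-uniform were left out, spots of a probe were averaged on the log2 scale, and each array's 75th percentile was subtracted. Probes were named through RefSeq accessions, with 1 probe per gene (highest mean signal). The test was limma's (version 3.58.1, R 4.3.3), over genes with 3 or more arrays of a compared group above background (two-sided, moderated, Benjamini-Hochberg over all genes tested, threshold 0.05). The 7 tumour arrays, the 16 marrow arrays, and all 23 arrays for comparisons across both, were fitted separately by group. The fits were tested on simulated data. TAM naive replicate 2 and the series' value table were not used.

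The members and lists were chosen with earlier results of these data known. Named genes are the members, up to 4 genes per list and direction with the smallest p, the brightest where none passed, and the 10 genes most like the globins. Replicate numbers were checked as pairs: M1 and M0 naive arrays of one number deviated together (correlations 0.649, 0.229, 0.674 and 0.252 over 20131 genes), and no other pair of groups did throughout. Alternatives were other scalings, normexp background (offset 50), other filters, the mean over probes, slide and replicate blocks, and leaving out each array. A few genes that this rule names are not reported here.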

Additional observations from a re-analysis of the deposited data

Results flagged for a closer look

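TAM naive replicate 2, left out of every comparison because its label says that the submitters excluded it, carried signal of 5 of the 6 genes above background. Hba-a1 was 0.31, Hba-a2 8.65, Hbb-bt 4.25, Alas2 -0.76 and Slc4a1 -0.55 on the log2 scale relative to the 75th percentile, and Hbb-b2 was not well above background. Hba-a2 and Hba-a1, which list the same transcripts, differed by 8.34 log2 units on this array, against 0.72 to 2.73 on the 23 others. Hbb-bt and Hbb-b2 differed by 6.02, against 1.12 to 1.83 on the other tumour arrays. The Hbb-b1 probe was not above background there, at -3.50, and 42.5% of all probes were. For the 6 genes no group of 4 arrays passed Dixon's test at the 0.05 level. With 4 arrays this test can miss a clear outlier, and TAM naive, with 3 arrays used, was not run. Hba-a1 in TAM post-sepsis gave 0.746, though replicate 3 was 23.8-fold below the mean of the other tumour arrays. The highest ratios of gap to range were 0.788, for Hba-a2 in TAM post-sepsis, and 0.787, for Slc4a1 in M2.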

How the results depend on the processing

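The rise of the globins and Alas2 in tumour isolates over marrow cultures passed the test under every alternative run. Slc4a1 did so in TAM naive, except without TAM naive replicate 1 (1.08, adjusted p = 0.0917), and in TAM post-sepsis against M0 post-sepsis its sign turned with normexp (-0.05). In TAM post-sepsis against TAM naive the genes passing numbered 0, but 10100 with slide as a block, 9897 with the replicate block and 0 to 9839 with an array left out, the highest without post-sepsis replicate 2. Median scaling moved the median change of all genes there from -0.047 to 0.51. The replicate block, which drops the unmatched post-sepsis replicate 2, called 6 of 6 members lower (Hba-a1 -1.64, Hba-a2 -1.76, Hbb-bt -2.06, Hbb-b2 -1.76, Alas2 -1.69, Slc4a1 -1.07), with adjusted p from 0.00341 to 0.0294. In this setting 9897 of the 28932 genes tested passed in either direction. Hba-a1 was 9.02, 3.94 and 7.73 in post-sepsis replicates 1, 3 and 4, against 9.07, 8.17 and 8.38 in naive arrays of those numbers. Its difference thus rests mostly on replicate 3, and the p-values use limma's moderated spread, not that of these arrays alone. Arrays of one number correlated at -0.646, 0.118 and 0.304 in the tumour comparison. Arrays of different numbers were not compared, so these values cannot settle whether the numbers pair these samples. In the other comparisons the replicate block changed no member's call, including M1 against M0 naive, whose arrays of one number deviated together. With an array left out, the members called numbered 0 to 0 in TAM post-sepsis against TAM naive, 5 to 6 in TAM naive against M0 naive and 5 to 5 in TAM post-sepsis against M0 post-sepsis.

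With TAM naive replicate 2 included, the tumour difference turned to 0.88 for Hba-a1 and 0.81 for Hbb-b2, and the difference of sepsis effects to 0.48 and 0.62. Without post-sepsis replicate 3 Alas2 turned to 0.08 and 0.04 in these comparisons (ranges with an array left out -1.88 to 0.08 and -1.92 to 0.04). None of these passed the test, and the differences of sepsis effects for Hbb-b2 and Alas2 rest on marrow arrays below background. In M0 post-sepsis against M0 naive Hba-a2 turned to -0.06 with median scaling and to -0.14, -0.21 and -0.03 without M0 post-sepsis replicates 1 and 3 and M0 naive replicate 3 (range -0.21 to 0.25), and Slc4a1 to -0.16 without M0 post-sepsis replicate 3 (range -0.16 to 0.41). Hba-a1 in M2 turned to 0.11 without M2 replicate 1 (range -0.43 to 0.11).

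Over all genes, median scaling lowered the calls from 3527 to 1306 in M0 post-sepsis and from 3536 to 1475 in M2. For the difference of sepsis effects 1884 genes passed, 869 with median scaling, 3085 with quantile scaling, 759 with TAM naive replicate 2 and 949 to 5882 with an array left out. Post-sepsis replicate 3 minus the other tumour arrays was -3.38 for Hba-a2 with median scaling, -4.39 for Alas2 with normexp, and -1.44, -1.33 and -1.13 for Slc4a1 with median scaling, quantile scaling and normexp. The mean over probes left the members as they were, since each has 1 probe. The cause of these shifts was not tested. Arrays below background limit what can be said of Hbb-bt, Hbb-b2 and Alas2 in marrow.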

Other observations

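M0 post-sepsis replicate 3 was the marrow array on which Hbb-bt was above background. After scaling it also had the highest Hba-a1 (-1.84), Alas2 (-4.83, below background) and Slc4a1 (-2.02) of the 16 marrow arrays. Hba-a2 (-0.17, against -1.55 to 0.04 on the other 15) and Hbb-b2 (-5.63, below background, against -7.01 to -5.12) were not highest there. Its 75th percentile, 236.5 intensity units, was the lowest of the 23 arrays, which raises scaled levels. Before scaling Hba-a1 was 66 units there and 87 on M2 replicate 3, and Slc4a1 58 and 83. On M0 post-sepsis replicate 3 Hemgn, a nuclear protein of blood progenitors, stood at 10.59 against 5.64 to 8.54 on the other 15. Dmtn, dematin of the red cell cytoskeleton, stood at 9.27 against 2.51 to 5.94. Both genes were chosen after their values were seen, and no test was run on this array.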
